A study of Mus musculus with 2 samples.

Results

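The Janus kinases and STATs are the kinases and transcription factors that carry cytokine signals from the membrane to the nucleus. Their 9 genes were Jak1, Jak2, Jak3, Tyk2, Stat2, Stat3, Stat5a, Stat5b and Stat6, chosen by name as the rows of the deposited expression table that give that gene alone. Of the 9, 8 had such a row among 35798 rows in all. Jak3 shared its row with Insl3, a testis and ovary hormone gene that overlaps its end, and so had no value of its own. RNA was sequenced from stromal cells of the bone marrow of C57BL/6 adult mice, sorted as CD45-, CD31- and Ter119- (without the leukocyte, endothelial and red cell surface markers) and as positive for the nestin reporter GFP. Nes-gfp littermates gave the control library, and the other library, called the mutant library below, came from Nes-gfp;Mx1-cre;JAK2-V617F mice. All animals had received pIpC, a double-stranded RNA analogue that induces interferon and through it the Mx1 promoter that drives Cre, and cells were taken 6 weeks later. Each library pooled 3 animals of its genotype, so n = 1 per genotype and no value has a replicate error. The labels give the control neither Mx1-cre nor JAK2-V617F, so an effect of Cre and one of the mutant kinase cannot be told apart. The Mx1 promoter responds to interferon in many cell types, blood cells among them.

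Cytokine receptors of this class have no kinase activity of their own. They hold Janus kinases on their cytoplasmic tails, and when a ligand draws the chains together the kinases phosphorylate each other, the receptor and the STAT proteins that dock there. Phosphorylated STATs pair through their SH2 domains, enter the nucleus and switch on target genes, among them the SOCS inhibitors that shut the signal off. Jak1 serves the interferon, gp130 and common gamma chain receptors, Jak2 the erythropoietin, growth hormone and interferon gamma receptors, Tyk2 the type I interferon and interleukin-12 receptors, and Jak3, mainly in lymphoid and other blood cells, the common gamma chain. The JAK2 V617F change lies in the pseudokinase domain, which normally holds the kinase domain in check, and it drives most cases of polycythaemia vera. In the marrow stroma, gp130 and leptin receptor signals through STAT3 are known to act on skeletal and niche cells.

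The mouse reference coding sequence is shown around the codon at the position that the mutation in the genotype label names. The lines below give, in capitals, the codon of mouse Jak2 at the position that V617F names, with 10 codons on each side, and in capitals the codon that aligns with it in each of the other kinases. The sequences are GENCODE vM21 transcripts on GRCm38, 5′ to 3′, spliced.
Jak2: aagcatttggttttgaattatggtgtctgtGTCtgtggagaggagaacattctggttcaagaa
Jak1: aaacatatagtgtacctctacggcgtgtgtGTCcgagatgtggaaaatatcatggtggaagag
Tyk2: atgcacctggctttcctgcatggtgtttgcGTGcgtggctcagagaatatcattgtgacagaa
Jak3: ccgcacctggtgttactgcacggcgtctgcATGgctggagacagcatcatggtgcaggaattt
This Jak2 codon lies on the plus strand of chromosome 19 from 29294928 to 29294930, in exon 13 of the 24 exons of its transcript. Jak2, Jak1 (codon 657) and Tyk2 (codon 698) carry a valine codon at this place and Jak3 (codon 588) a methionine codon. Of the 63 bases shown, compared place by place without gaps, 39 are the same in Jak1 as in Jak2, 39 in Tyk2 and 32 in Jak3. Where a window would need a gap, as that of Jak3 does after the marked codon, such a count is too low. The expression table holds no base calls, so the mutant and the normal transcript could not be counted apart, and neither the species nor the sequence of the mutant gene is given in the sources used here.

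Values are FPKM, fragments scaled by transcript length and by library size, so levels can be set beside each other between genes within a library. Between libraries they also depend on the scaling, which is not stated. The steps between low values put the fragment total behind the FPKM scale at about 5480000 for the control library and 6330000 for the mutant library. That total is the depth only if no further scaling was applied. All 12 mesenchymal stromal markers were above 1 FPKM in both libraries, and they summed to 5930 FPKM in the control and 3370 in the mutant library. Transcripts of the cells the sort was meant to remove were present as well. All erythroid, myeloid and pan-leukocyte markers listed were also above 1 FPKM in both, so that level does not set stromal cells apart. The 10 erythroid markers summed to 2880 FPKM in the control and 1580 in the mutant library, the 12 myeloid markers to 2640 and 2720, the 10 pan-leukocyte markers to 556 and 729, and the 8 endothelial markers to 36.6 and 50.8. In these 4 lists no marker was listed at 0 in either library.

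Among the kinases, Jak1 was by far the most abundant transcript in both libraries. It was at 81.3 FPKM in the control library and 72.4 FPKM in the mutant library, above 94.5% of the 18934 protein-coding genes in each. Jak2, the mouse gene of the kinase named in the genotype label, was at 24.5 FPKM in the control library and 29.9 FPKM in the mutant library. The mutant gene has no row of its own, so the Jak2 value does not check the genotype label. Tyk2 was at 16.1 and 11.0 FPKM. Jak2 therefore lay a little higher, and Jak1 and Tyk2 lower, in the mutant library. The row shared by Insl3 and Jak3 was at 0.788 FPKM in the control library and 2.59 FPKM in the mutant library, far below the other kinases in both, and how much of it is Jak3 cannot be read from it.

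Among the STATs, Stat6 stood apart from the rest. Stat6, the factor of interleukin-4 and interleukin-13 signalling, was at 17.6 FPKM in the control library and 36.1 FPKM in the mutant library. It lay above 74.5% of protein-coding genes in the control and above 87.3% in the mutant library. Stat5b, which with Stat5a serves growth hormone and erythropoietin, was at 13.0 and 16.0 FPKM. Stat5a itself was at 31.6 and 21.3 FPKM. The close pair Stat5a and Stat5b thus lay on opposite sides of the control level. Stat3, the factor of gp130 and leptin signalling, was at 30.2 and 23.6 FPKM, and Stat2, the subunit by which type I interferon reaches its target genes, was at 13.9 and 11.4 FPKM. Stat2, Stat3 and Stat5a were lower in the mutant library.

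**Figure D1:**
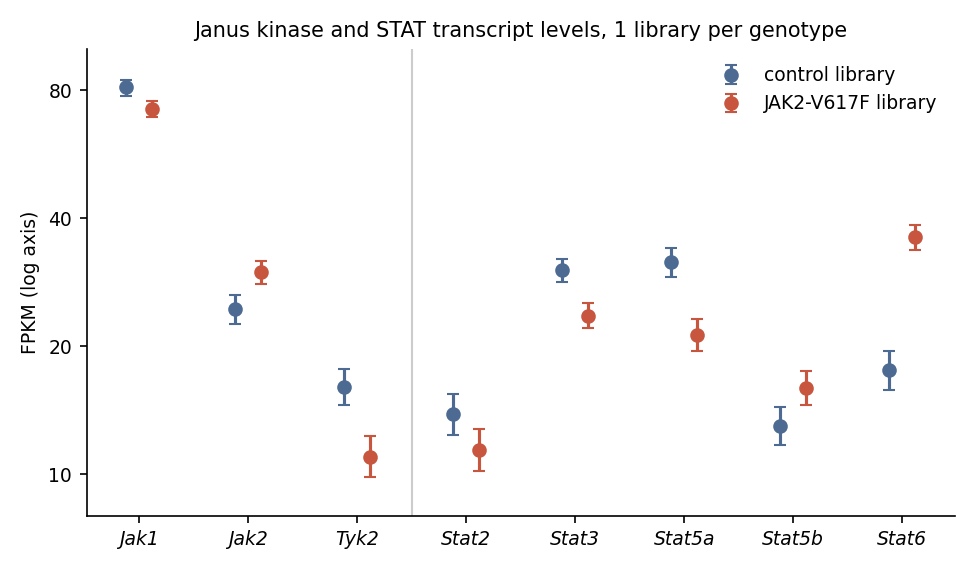
FPKM on a log axis of each Janus kinase and STAT in the control and the mutant library (1 library each); bars are exact 95% Poisson intervals of the estimated fragments on the longest annotated transcript and cover counting error only. Jak1 is the highest in both libraries at 81.3 and 72.4 FPKM, and Stat6 lies at 17.6 and 36.1 FPKM.

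The order of levels differed between the 2 libraries below Jak1. In the control, Jak1 was followed by Stat5a, Stat3, Jak2, Stat6, Tyk2, Stat2 and Stat5b. In the mutant library, Jak1 was followed by Stat6, Jak2, Stat3, Stat5a, Stat5b, Stat2 and Tyk2. The only spread that can be attached to a level is its counting interval, an exact 95% Poisson interval of the fragments estimated on the longest annotated transcript. In the control, 4 of the 7 neighbouring pairs had overlapping intervals: Stat5a (29.2 to 34.1 FPKM) with Stat3 (28.3 to 32.2), and the run of Stat6 (15.8 to 19.5), Tyk2 (14.6 to 17.7), Stat2 (12.4 to 15.5) and Stat5b (11.7 to 14.4). In the mutant library, 2 of 7 did, Stat3 (22.1 to 25.3 FPKM) with Stat5a (19.5 to 23.2) and Stat2 (10.2 to 12.8) with Tyk2 (9.86 to 12.3). Stat6 thus lay below Jak2, with an interval overlapping that of Tyk2, in the control, and directly after Jak1 in the mutant library, with an interval of 33.7 to 38.6 FPKM that overlapped no neighbour. All these overlaps hold for the longest transcripts only. On shorter transcripts fewer fragments would widen the intervals, and the overlaps there were not computed.

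No member with a row of its own reached a 2-fold difference between the libraries on the scale used here, log2((JAK2-V617F FPKM + 1)/(control FPKM + 1)). Of the 15118 rows naming 1 gene at 1 FPKM or more in a library, 25.2% reached it. Stat6 came to 0.997 on this scale, just inside the threshold of 1, and its plain FPKM ratio was 2.05. It was also the only member past 1.5-fold, which 43.7% of all rows were. The log2 ratio was 0.28 for Jak2 and 0.28 for Stat5b. The members on the lower side were Jak1 (-0.17), Stat2 (-0.26), Stat3 (-0.34), Tyk2 (-0.51) and Stat5a (-0.55). Thus 3 members lay above 0 and 5 below. The median was -0.17 for the 3 Janus kinases and -0.26 for the 5 STATs, beside -0.03 over all rows. The interquartile range of all rows ran from -0.49 to 0.50 and took in 5 of the 8 members, leaving out Tyk2 and Stat5a below and Stat6 above.

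**Figure D2:**
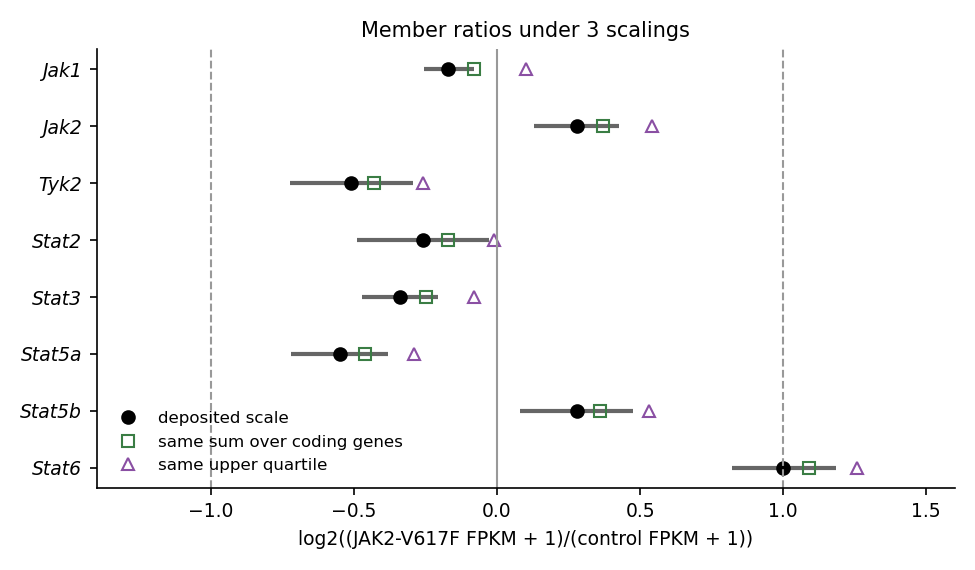
Log2 ratio of JAK2-V617F to control FPKM for each member on the deposited scale (filled circles, with exact 95% counting intervals on the longest transcript as bars) and after rescaling to the same sum over protein-coding genes (squares) or to the same upper quartile (triangles); dashed lines mark 2-fold. Stat6 lies at 0.997 on the deposited scale and at 1.26 after upper-quartile rescaling, and Jak1 moves from -0.17 to 0.10.

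The depth behind these ratios depends on which transcripts the fragments came from, which the table does not give. Taken on the longest annotated transcript of 3775 bases, Stat6 rested on about 347 fragments in the control and 823 in the mutant library, and its ratio had an exact 95% counting interval of 1.81 to 2.33. Taken on its shortest, of 341 bases, the same values would be 16 and 39 fragments, with an interval of 1.15 to 4.04. Jak2 rested on 651 and 918 fragments at the longest (interval 1.10 to 1.35) and on 275 and 387 at the shortest (1.04 to 1.43). Tyk2 rested on 411 and 325 at the longest (0.590 to 0.794) and on 99 and 78 at the shortest (0.500 to 0.927). Stat5a rested on 655 and 510 fragments at the longest (0.599 to 0.758), and its interval at the shortest was 0.360 to 1.18. Stat3 rested on 972 and 878 at the longest (0.713 to 0.858), with 0.446 to 1.36 at the shortest. Stat5b rested on 360 and 511 at the longest (1.07 to 1.41), with 0.794 to 1.87 at the shortest. The shortest transcripts of these 3 genes have 336, 349 and 727 bases, against 3958, 6042 and 5213 for the longest. Stat2 rested on 321 and 306 at the longest (0.703 to 0.968), and Jak1, the deepest, on 2108 and 2168 (0.838 to 0.946). On the longest transcripts the counting intervals of all 8 members leave out 1, and on the shortest those of Stat6, Jak2 and Tyk2 do, while those of the other 5 hold 1. The share of all rows whose intervals leave out 1 was not computed, so these counts show nothing particular to the members. These intervals cover counting error only. They hold neither the differences between animals nor those of the amplification from a few nanograms of RNA, which no replicate measures, and reads copied in amplification are not separate molecules.

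Scaling mattered for the small ratios. Rescaling both libraries to the same upper quartile moved the median of all rows by 0.25, and under it Jak1 came to 0.10, on the other side of 0, and Stat2 to -0.01. Relative to that shifted median, Jak1 lay at -0.12 and Stat2 at -0.23, close to their positions on the deposited scale (-0.14 and -0.23). The other 6 members lay on the same side of 0 under the 2 other pseudocounts and the 3 rescalings tried. Stat6 ranged from 0.86 with a pseudocount of 5 FPKM to 1.26 with the upper quartile, and it was past 2-fold under all 3 rescalings.

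The make-up of each family can be given as shares of its summed FPKM, which do not depend on scaling between libraries. The 3 Janus kinases summed to 122 FPKM in the control and 113 in the mutant library. Jak1 made up 66.7% of the sum in the control and 63.9% in the mutant library, Jak2 20.1% and 26.4%, and Tyk2 13.2% and 9.74%. The ratio of Jak1 to Jak2 was 3.32 in the control and 2.42 in the mutant library, and that of Jak2 to Tyk2 was 1.52 and 2.71. Counting the whole shared row of Insl3 and Jak3 as a Janus kinase would give it 0.643% and 2.23%.

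The 5 STATs summed to nearly the same level in both, 106 FPKM in the control and 108 in the mutant library, with a different make-up. Stat6 made up 16.5% of the sum in the control and 33.3% in the mutant library. Stat5a made up 29.7% and 19.6%, Stat3 28.4% and 21.8%, Stat2 13.1% and 10.6%, and Stat5b 12.3% and 14.8%. Stat6 was at 0.582 times the level of Stat3 in the control library and at 1.53 times in the mutant library. Stat5a was 2.42 times as abundant as Stat5b in the control and 1.33 times in the mutant library.

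**Figure D3:**
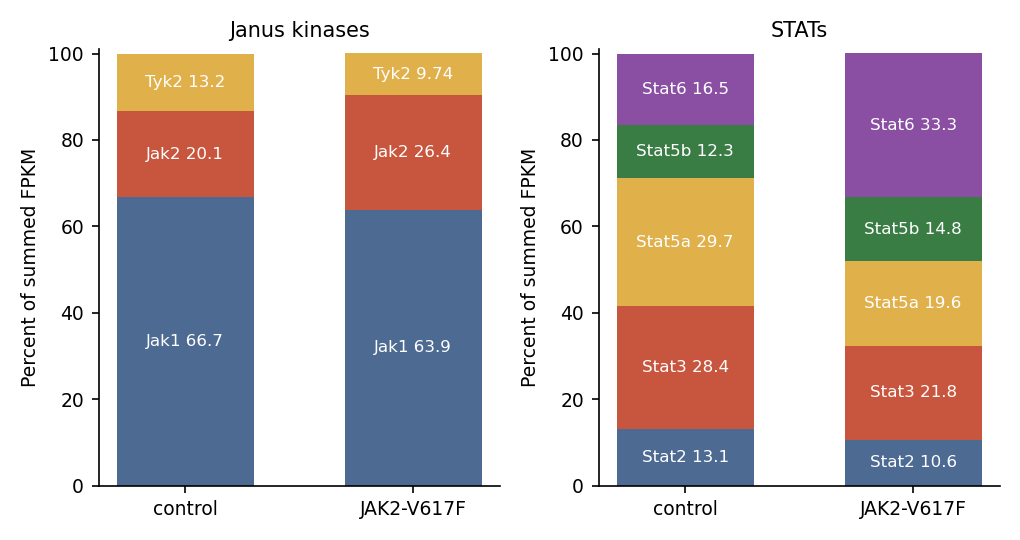
Share of each member in the summed FPKM of its family, in percent, for the control and the mutant library (1 library each, no error). Stat6 takes 16.5% of the STAT sum in the control and 33.3% in the mutant library, and Jak1 takes 66.7% and 63.9% of the kinase sum.

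Several members are also transcribed in blood cells, and markers of these cells differed between the same 2 libraries. Of the 10 pan-leukocyte markers, 9 were above 0 on the log2 scale, with a median of 0.55. Of the 9 lymphoid markers reaching 1 FPKM, 4 passed 2-fold upward and 1 downward, beside 13.8% of all rows higher and 11.4% lower. The 12 of that list summed to 137 FPKM in the control and 189 in the mutant library. Nkg7 alone was at 27.3 and 76.6 FPKM, while Igll1 was at 41.5 and 26.8 and Vpreb1 at 7.84 and 3.17. In the lymphoid list Cd3e, Cd3g and Cd4 were listed at 0 in the control, and Cd3g and Cd8a in the mutant library. The 7 megakaryocyte markers summed to 8.31 FPKM and 54.5 FPKM, with Gp6, Pf4, Ppbp and Treml1 listed at 0 in the control and Gp6 in the mutant library. All 10 erythroid markers lay below 0, with a median of -0.64, and 10 of the 12 stromal markers did, with a median of -0.37. The part of these cells in the member values was not tested. In bulk RNA of sorted pools, fewer cells of a type and less RNA per cell cannot be told apart.

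Position in the genome was not used to choose the members, and some of them are neighbours. On chromosome 11 (GRCm38), Stat5b (100780731 to 100850724, minus strand) is followed after 8626 bases by Stat5a (100859351 to 100885169, plus strand), and the end of Stat5a overlaps the end of Stat3 (100885098 to 100939540, minus strand) by 72 exonic bases. These 3 neighbours had log2 ratios of 0.28, -0.55 and -0.34. On chromosome 10, Stat6 (127642986 to 127660957, plus strand) lies 609.6 kb before Stat2 (128270559 to 128292849, plus strand), with log2 ratios of 0.997 and -0.26. Stat5a and Stat3, whose ends overlap, thus both lay below 0, while Stat5b lay above 0 beside them, and Stat6 and Stat2 lay on opposite sides. The remaining members are on chromosomes 4 (Jak1, 101152367 to 101265282), 8 (Jak3, 71676296 to 71690575), 9 (Tyk2, 21104068 to 21131243) and 19 (Jak2, 29251828 to 29313080).

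Where genes on opposite strands overlap and the use of strand is not stated, fragments of the 2 cannot be told apart. Stat6 shares 40 exonic bases at its end with Nab2, a repressor of early growth response factors, of the 4402 exonic bases annotated for Stat6. Nab2 was at 9.06 FPKM in the control library and 4.08 FPKM in the mutant library. Gm16229, whose row carries the same locus as those of Stat6 and Nab2, was listed at 0 in the control library and at 2.53 FPKM in the mutant library. The part of either gene in the Stat6 value was not tested. Tyk2 shares 554 of its 6865 exonic bases with the antisense transcript 1700084C06Rik, which was at 10.3 and 13.7 FPKM. Jak1 shares 4 exonic bases with Raver2. For Jak2, Stat2 and Stat5b no overlapping gene is annotated.

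The promoters were searched for the 2 kinds of element by which STATs act, because a family member can be a target of its own pathway. RefSeq promoters (GRCm38.p6, 250 bases before to 50 after a start site) were matched for all 9 genes, 11 promoters in all. The motifs were TTCNNNGAA, the gamma-activated site, TTCNNNNGAA, the wider spacing that STAT6 prefers, and GAAANNGAAA, the core of the interferon-stimulated response element, each searched on both strands. They occur in 8.30%, 6.95% and 3.44% of all 32851 promoters. None of the 11 holds TTCNNNGAA. The Stat2 promoter alone holds the other 2, and its matches are shown with 10 bases on each side, the match in capitals, on the plus strand of chromosome 10.
Stat2, GAAANNGAAA read on the minus strand, chr10:128270266-128270295: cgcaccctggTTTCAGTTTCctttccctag
Stat2, TTCNNNNGAA, chr10:128270278-128270307: tcagtttcctTTCCCTAGAActcacggttc
The 2 matches end 213 and 201 bases before the start site. They are letters in a window, not measured binding sites. The printed stretches overlap, the matches themselves do not. Stat2 itself was at 13.9 FPKM in the control library and 11.4 FPKM in the mutant library, both taken after pIpC. In base composition, the Jak2 promoter held 81.0% G and C with 44 CpG pairs, and the Stat6 promoter 57.3% with 8, beside medians of 52.7% and 7 over all promoters.

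The chains of the receptors that signal through the kinases did not lean to either side. The list mixes chains that hold a kinase with chains that only bind the ligand. Of 39 chains listed, 35 had their own row, and 28 of those were at 1 FPKM or above. Of these, 4 passed 2-fold on the higher side and 4 on the lower side, beside 13.8% of all rows higher and 11.4% lower. The median log2 ratio was 0.01. The most abundant chains were the Jak2-coupled erythropoietin and leptin receptors and the interferon gamma receptor. Epor was at 84.2 and 80.2 FPKM, Lepr at 84.8 and 65.4, and Ifngr1 at 58.2 and 81.7. Cntfr, the ciliary neurotrophic factor receptor, was listed at 0 in the control library and at 6.19 FPKM in the mutant library, and Crlf2, the thymic stromal lymphopoietin receptor, was listed at 0 and at 4.01. Il13ra1, which with Il4ra forms a receptor that signals through Stat6, was lower, at 3.32 and 0.386 FPKM. Il4ra itself was at 1.40 and 1.98 FPKM. The 2 chains of that receptor thus lay on opposite sides, and a link to the Stat6 value was not tested. Il4ra was chosen for mention after its value was seen.

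Few ligands of these receptors reached 1 FPKM. Of 28 with a row, 15 were listed at 0 in the control and 15 in the mutant library, Ifnb1, Ifng, Il13 and Csf3 in both. That is near the share over all 35798 rows, of which 16913 were above 0 in the control and 18883 in the mutant library. Of the 28 ligands, 6 reached 1 FPKM in a library, beside 15118 of the 35397 rows naming 1 gene. The highest were Il12a (6.42 and 10.9 FPKM), Il7 (2.15 and 4.34 FPKM) and Il15 (2.40 and 1.69 FPKM). Lep, which encodes leptin, the ligand of the abundant leptin receptor, was past 2-fold, at 1.71 FPKM in the control library and 0.0528 FPKM in the mutant library.

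Of the inhibitors and phosphatases, all 22 reached 1 FPKM. Among them 2 were past 2-fold on the higher side and 3 on the lower side, a share near the 25.2% of all rows past 2-fold in either direction, and the median was -0.09. Ptpn6, the SHP-1 phosphatase of blood cells that dephosphorylates Janus kinases, was the most abundant at 368 FPKM in the control library and 117 FPKM in the mutant library (log2 ratio -1.65). Pias3, a SUMO ligase named for its inhibition of STAT3, was at 20.4 and 4.21 FPKM (-2.04). Ptpn11, the SHP-2 phosphatase, was at 45.4 and 29.5 FPKM, and Cbl, a ubiquitin ligase that marks activated receptors, at 30.1 and 28.7 FPKM. The SOCS family genes past 2-fold were split: Socs1 was at 5.55 and 0.285 FPKM, Socs2 at 3.07 and 14.9, and Cish at 0.530 and 4.78. The other SOCS genes listed were within 2-fold. Cish and Socs2 are textbook STAT5 targets, while Stat5a was at 31.6 and 21.3 FPKM and Stat5b at 13.0 and 16.0 in the same libraries.

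Of 15 adaptors and nuclear partners, 1 passed 2-fold upward and 1 downward, with a median of -0.02. Grb2, the adaptor that links receptors to Ras, was at 56.4 and 18.6 FPKM, and Vav1, an exchange factor of blood cells, at 4.78 and 12.8. Hdac1 was at 69.9 and 82.8 FPKM, Shc1 at 74.6 and 46.5, and the coactivator Crebbp at 49.5 and 42.0. Target genes showed no common side either. Of 21 STAT targets, 6 passed 2-fold upward and 5 downward, with a median of -0.02, beside 13.8% of all rows higher and 11.4% lower. With a pseudocount of 5 FPKM, 3 of them passed in either direction, beside 8.11% of all rows. Pim3, a survival kinase gene, was at 0.125 FPKM in the control library and 4.23 FPKM in the mutant library. Pim2, of the same kinase family, was at 0.468 and 5.01 FPKM. Timp1, a protease inhibitor gene, was lower, at 76.9 and 28.2 FPKM. Myc was at 140 and 157 FPKM and Mcl1 at 71.4 and 60.0. Of 15 type I interferon targets reaching 1 FPKM, 1 passed 2-fold upward and 3 downward, with a median of -0.06, while Stat2, through which they are switched on, was at -0.26. Ifitm3 was the most abundant of them, at 167 and 247 FPKM, and Ifih1, a sensor of double-stranded RNA, was at 25.6 and 22.0. Mx1 lay past 2-fold upward (0.438 and 2.79 FPKM), and Rsad2 (23.2 and 8.24), Irf7 (23.9 and 9.32) and Oasl2 (18.7 and 7.52) downward.

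**Figure D4:**
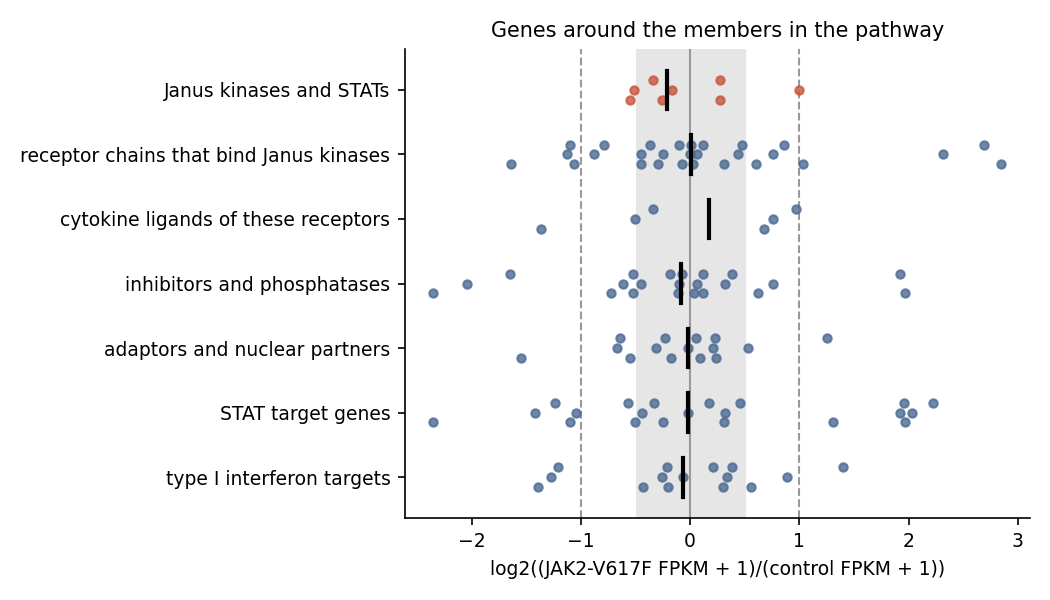
Log2 ratio of JAK2-V617F to control FPKM for the members (red) and for the genes of 6 pathway lists at 1 FPKM or more (blue), each point 1 gene, the black bar the median of its row, dashed lines 2-fold and the grey band the interquartile range of all rows (-0.49 to 0.50). The members run from -0.55 to 0.997, and the inhibitors and phosphatases from -2.35 to 1.97.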

How the data were processed

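Per the submitters' processing notes, the tools were Cufflinks, Bowtie2 2.0.6, TopHat2 2.0.7 and cutadapt 1.2.1, on GRCm38; annotation release, strand use and scaling between libraries are not stated there. The authors deposited 1 FPKM value per gene and library. Of 35798 rows, 401 name several genes and were left out of ratios. From the FPKM values log2((JAK2-V617F + 1)/(control + 1)) was computed, and rows at 1 FPKM or more in a library were kept. With 1 library per genotype no test was made and no p-value is given. The value of 1 fragment (for an effective length of 1 kb, 0.183 FPKM, control, and 0.158 FPKM, JAK2-V617F) was read from the lowest step of 5569 genes with 1 transcript in GENCODE vM21, with 170 bases taken off each length. Of their values between 1.5 and 3.5 fragments, a share of 63.4% (control) and 64.7% was no more than 0.2 from a whole number, against 40% for an even spread. Estimates multiply FPKM by transcript length, and ratio intervals are exact (Clopper-Pearson, 95%). Code was tested on simulated data. Genes were protein-coding by symbol in GENCODE vM21. Alternatives were pseudocounts of 0.1 and 5, filters of 0 and 5 FPKM, 3 rescalings and a threshold of 1.5-fold. The text names all members and, of each pathway list, up to 4 genes past 2-fold and the 3 most abundant; a gene the rule names is left out where it is not reported here. Members and lists were chosen with earlier results of these data known. Python 3.11.15, pandas 2.3.3, scipy 1.17.1 and biopython 1.88 were used.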

Additional observations from a re-analysis of the deposited data

How the results depend on the processing

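With 1 library per genotype, no library could be left out and differences between animals are not measured; the depth of each gene is known only within its transcript lengths. No paired analysis was possible because each group holds 1 library. The number of members past 2-fold, 0 on the deposited scale, was 1 with a pseudocount of 0.1 FPKM, after each of the 3 rescalings and at a threshold of 1.5-fold, and the gene was Stat6 each time. The Janus kinase median of -0.17 was -0.08 after rescaling to the same sum, -0.07 after rescaling to a median ratio of 1 and 0.10 after rescaling to the same upper quartile; the STAT median of -0.26 was -0.01 under the last. Under the same upper quartile the inhibitor median was 0.17 and the adaptor median 0.24, and 67.5% of the rows past 2-fold were higher in the JAK2-V617F library, against 54.7% on the deposited scale. With a pseudocount of 5 FPKM, 8.11% of all rows passed 2-fold, against 25.2% with 1 FPKM. Fewer listed genes also passed 2-fold: 3 receptor chains, 0 ligands, 3 inhibitors, 1 adaptor, 3 STAT targets and 2 interferon targets. At 5 FPKM or more, 5 receptor chains and 0 ligands did. For ligands the count was 2 with a pseudocount of 0.1 FPKM and after each rescaling. The call for Oasl2, an interferon target, was lost under the upper quartile (-0.97). Adding the shared row to the kinase sum was chosen after seeing the data. The planned sum without Jak3 was not run as an alternative, because Jak3 had no row of its own.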
